A study of Mus musculus with 9 samples.

Results

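The 46 nuclear genes described here encode subunits of respiratory complexes II, III and IV, cytochrome c and ATP synthase. They were chosen by name from the 54532 genes of a mouse expression table and comprise 4 genes of complex II, 9 of complex III, 17 of complex IV, 2 of cytochrome c and 14 of ATP synthase. The rule uses no measured value. RNA sequencing covered 3 groups of 3 libraries, all from primary male germ cells at postnatal day 35 and titled spermatocytes. They were ClpX cKO, in which ClpX was deleted conditionally, ClpP cKO, in which ClpP was deleted conditionally, and the wild-type control. In both knockouts the deletion was driven by Stra8-Cre, which acts in male germ cells before meiosis and leaves the somatic cells of the testis with intact genes, and whether the controls carried Cre or floxed alleles is not given in the sources used here. ClpX is the unfoldase that feeds proteins to ClpP, the protease of the mitochondrial matrix. The libraries are not tied to animals by their labels, so each p-value measures only the spread between these libraries, which may be technical.

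Complex II oxidises succinate, complex III passes electrons to cytochrome c, and complex IV (cytochrome c oxidase) hands them to oxygen. ATP synthase then uses the proton gradient to make ATP, and its membrane ring of c subunits turns as protons pass. Several subunits of complex IV and cytochrome c itself have a second gene that is used in male germ cells, so that the testis form replaces the somatic form during spermatogenesis. The pairs in the mouse are Cox6b2 and Cox6b1, Cox7b2 and Cox7b, Cox8c and Cox8a, and Cyct and Cycs, with the testis form named first. Complexes III, IV and V also contain subunits encoded by mitochondrial DNA, which are not among the 46 genes.

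Levels are FPKM, the authors' deposited fragments per kilobase scaled to library size. Comparing levels between genes, as in the shares of a pair, rests on the gene lengths used. The comparison between libraries rests on the scaling to library size, whose denominator differed between the knockouts and the control. Changes are differences of log2(FPKM + 1) from a limma fit over the 17266 genes with a mean of at least 1 FPKM, with a call where the p-value, adjusted by Benjamini-Hochberg over all of them, was under 0.05. Of the 46 genes 45 passed this minimum, and Cox6a2, at a mean of 0.742 FPKM, was not tested. Recovered gene reads ranged from 14334436 to 17021685 per library. Clpx was at 15.6, 11.3 and 13.2 FPKM in ClpX cKO, at 40.3, 36.2 and 36.0 FPKM in ClpP cKO and at 59.3, 55.7 and 54.7 FPKM in the control, and Clpp was at 12.8, 12.5 and 14.1 FPKM, at 5.16, 6.15 and 3.69 FPKM and at 9.36, 8.46 and 9.36 FPKM in the same order of groups. Each targeted gene was thus lowest in its own knockout. Along principal component 1, with 66.5% of the variance, Control 3 and ClpX cKO 1 lay away from the other libraries of their own groups. Germ cell genes of several stages were present in every library beside Sertoli cell genes, as described with the results they touch.

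The promoters of 3 testis forms and of their 3 somatic forms are shown because the levels of these pairs carried the main pattern. RefSeq entries (assembly GRCm38.p6) were matched for 35 of the 46 genes by symbol. Each stretch runs from 250 bases before the annotated start of transcription to 50 bases after it and is written 5′ to 3′ on the strand of the gene. The entries are Cox6b2 at chr7:4753045-4753344, Cox7b2 at chr5:71548156-71548455 and Cyct at chr2:76360404-76360703, all on the minus strand, for the testis forms. The somatic entries are Cox6b1 at chr7:30626065-30626364 on the minus strand, Cox7b at chrX:106015450-106015749 on the plus strand and Cycs at chr6:50566520-50566819 on the minus strand. Capitals mark every match, on either strand, to 6 motifs: the cyclic AMP response element TGACGTCA, its shorter form TGACGT, the CCAAT box CCAAT, an ETS site CCGGAAG, an NRF1 site (GCGCA, any 1 base, GCGC) and a TATA box TATAAA.
Cox6b2: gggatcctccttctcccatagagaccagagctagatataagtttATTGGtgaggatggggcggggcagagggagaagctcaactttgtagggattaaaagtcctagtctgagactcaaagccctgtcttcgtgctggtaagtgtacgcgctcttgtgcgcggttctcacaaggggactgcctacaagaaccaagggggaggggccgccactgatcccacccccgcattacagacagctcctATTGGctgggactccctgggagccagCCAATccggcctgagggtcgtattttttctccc
Cox7b2: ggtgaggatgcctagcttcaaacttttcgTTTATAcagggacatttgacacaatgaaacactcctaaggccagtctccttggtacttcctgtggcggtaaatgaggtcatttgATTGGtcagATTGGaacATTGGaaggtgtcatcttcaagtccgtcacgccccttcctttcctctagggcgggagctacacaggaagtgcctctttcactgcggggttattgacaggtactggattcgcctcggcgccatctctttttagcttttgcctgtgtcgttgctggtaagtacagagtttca
Cyct: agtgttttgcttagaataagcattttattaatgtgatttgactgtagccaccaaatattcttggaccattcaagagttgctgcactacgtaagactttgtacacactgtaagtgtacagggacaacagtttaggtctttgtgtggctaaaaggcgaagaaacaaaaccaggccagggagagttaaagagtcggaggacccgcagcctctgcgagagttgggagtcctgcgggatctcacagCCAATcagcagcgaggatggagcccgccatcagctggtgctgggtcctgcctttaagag
Cox6b1: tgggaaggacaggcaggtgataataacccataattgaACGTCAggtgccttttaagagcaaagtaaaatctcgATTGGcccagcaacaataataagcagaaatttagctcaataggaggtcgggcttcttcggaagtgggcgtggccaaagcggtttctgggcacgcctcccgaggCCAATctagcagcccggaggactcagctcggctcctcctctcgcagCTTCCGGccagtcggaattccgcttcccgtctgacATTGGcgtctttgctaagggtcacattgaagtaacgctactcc
Cox7b: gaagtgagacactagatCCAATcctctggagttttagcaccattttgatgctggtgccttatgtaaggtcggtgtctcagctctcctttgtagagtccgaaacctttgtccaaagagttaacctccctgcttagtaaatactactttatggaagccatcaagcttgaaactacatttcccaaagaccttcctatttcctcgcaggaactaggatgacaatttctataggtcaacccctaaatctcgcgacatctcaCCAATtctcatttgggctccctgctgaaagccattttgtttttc
Cycs: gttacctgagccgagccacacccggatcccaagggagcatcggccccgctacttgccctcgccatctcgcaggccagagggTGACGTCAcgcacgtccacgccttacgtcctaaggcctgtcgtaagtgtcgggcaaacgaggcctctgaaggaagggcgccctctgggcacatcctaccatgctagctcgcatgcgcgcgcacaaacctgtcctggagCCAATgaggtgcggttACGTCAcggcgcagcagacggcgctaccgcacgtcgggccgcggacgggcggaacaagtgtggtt
The CCAAT box was the motif found in all 6 stretches. The full response element was found in the Cycs stretch and in none of the 3 testis stretches, and each full element also holds the shorter form on both strands. The dinucleotide CG occurred 10 times in the Cox6b2 stretch, 10 in Cox7b2 and 8 in Cyct, against 17 in Cox6b1, 5 in Cox7b and 32 in Cycs. Over the 35 genes the median was 18, against 7 over all 32851 entries. The NRF1 site was present in 28.6% of the 35 genes and in 4.6% of all entries, and the ETS site in 31.4% of the genes and 8.86% of all entries. The CCAAT box was present in 57.1% and 37.4%, the full response element in 5.71% and 1.79%, its shorter form in 14.3% and 7.51%, and the TATA box in 5.71% and 13.6%. These matches describe letters in a window of 300 bases and not binding, and a gene with more than 1 entry, of which there were 3, counted once if any entry held the motif.

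The testis forms of complex IV were the lower ones in both knockouts and their somatic forms were the higher ones. Cox8c, Cox6b2 and Cox7b2 fell in ClpX cKO and in ClpP cKO at the deposited scaling, although none of the 3 was below 0 under quantile normalization in either knockout. Cox8a, Cox6b1, Cox7b and Cycs rose in ClpX cKO under every scaling tried and did not pass the test in ClpP cKO. The testis form over the somatic form, taken within each library and therefore independent of any single factor per library, was lower in all 3 libraries of each knockout than in every control library for all 4 pairs. Under quantile normalization, which is no single factor per library, this held for the group means of each pair except Cyct over Cycs in ClpP cKO, at 0.12.

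Over all 45 tested genes, 14 rose and 9 fell in ClpX cKO, which is 51.1% of them, against 65.6% of all tested genes (32.1% higher and 33.5% lower) and 70.6% of tested protein-coding genes. In ClpP cKO 6 rose and 7 fell, 28.9% of the 45, against 44.7% of all tested genes (20.7% higher and 24% lower) and 49.3% of protein-coding genes. At the deposited scaling and this minimum, calls were thus not more frequent among the subunits than among genes at large in either comparison. In ClpX cKO this order turned under quantile normalization, with 34 of the 45 called beside 63.6% of all genes. It also turned there with no filter on low values, with 23 of 46 called beside 29.1%. The median change of the 45 genes was 0.08 in ClpX cKO, beside -0.00 for all genes and 0.11 for protein-coding genes. It was -0.03 in ClpP cKO, beside 0.01 and 0.08, in the same order. Under quantile normalization the median of the 45 was 0.42 in ClpX cKO and 0.23 in ClpP cKO, beside 0.09 and 0.07 for all genes. Under scaling by own totals it was 0.30 and 0.15, beside 0.18 and 0.16 for all genes, so that the median of the 45 stayed just below that of all genes in ClpP cKO. The libraries of ClpX cKO and control did not overlap for 28 of the 45 genes, beside 69.8% of all genes, and those of ClpP cKO and control for 21, beside 61.7%.

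Cox8c (ENSMUSG00000043319, chr12:102899316-102900526), the testis form of a small membrane subunit, was at 532, 480.1 and 409.6 FPKM in ClpX cKO, at 499, 543 and 539 FPKM in ClpP cKO and at 693, 655 and 705 FPKM in the control. All 6 knockout libraries lay below all 3 controls, and in each group Cox8c stood above every other of the 46 genes with no overlap with the next. It fell by 0.54 on the log2 scale in ClpX cKO (SE 0.11, limma adjusted p = 0.0027) and by 0.38 in ClpP cKO (SE 0.11, adjusted p = 0.024). The ClpP cKO call was lost whenever any 1 of the 6 compared libraries was left out, with changes between -0.34 and -0.41. It was also lost with no filter on low values (-0.38) and under scaling by own totals (-0.19).

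Cox8a (ENSMUSG00000035885, chr19:7215158-7217616), its somatic form, was at 37.8, 47.7 and 57.3 FPKM in ClpX cKO, at 28.9, 31.7 and 37.9 FPKM in ClpP cKO and at 30.2, 24.3 and 15.7 FPKM in the control. ClpX cKO lay above every control, while ClpP cKO overlapped the control. Control 3 was the lowest library. It rose by 1.02 in ClpX cKO (SE 0.23, limma adjusted p = 0.0048), and the difference of 0.51 in ClpP cKO did not pass (SE 0.23, adjusted p = 0.1). The ClpX cKO call was kept without Control 3 (0.77), without ClpX cKO 1 (1.17) and without both (0.92). The share of Cox8c in the summed FPKM of the pair averaged 90.7 ± 2.83% in ClpX cKO, 94.1 ± 0.621% in ClpP cKO and 96.7 ± 1.02% in the control (SD, n = 3 each). It was 89.3% over ClpX cKO 2 and 3 and 96.1% over Control 1 and 2.

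Cox6b2 (ENSMUSG00000051811, chr7:4751792-4753094), the testis form of a subunit at the contact of the complex IV dimer, was at 192, 149 and 152 FPKM in ClpX cKO, at 154, 175 and 167 FPKM in ClpP cKO and at 224, 203 and 227 FPKM in the control. No knockout library reached the lowest control. It fell by 0.42 in ClpX cKO (SE 0.11, limma adjusted p = 0.0099) and by 0.40 in ClpP cKO (SE 0.11, adjusted p = 0.022). The ClpP cKO call was lost without Control 1, Control 3, ClpP cKO 1 or ClpP cKO 3, with changes of -0.37, -0.37, -0.34 and -0.40, and with no filter on low values (-0.40). Under scaling by own totals neither knockout's call was kept (-0.19 in ClpX cKO and -0.21 in ClpP cKO).

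Cox6b1 (ENSMUSG00000036751, chr7:30616861-30626151), the somatic form, was at 27.8, 30.5 and 39.1 FPKM in ClpX cKO, at 26.8, 28.7 and 27.4 FPKM in ClpP cKO and at 26.8, 20.7 and 22.1 FPKM in the control. ClpX cKO lay above the control, and the lowest ClpP cKO library was level with Control 1. It rose by 0.46 in ClpX cKO (SE 0.13, limma adjusted p = 0.014), a call that was lost without Control 2 at a change of 0.39. The limma difference of 0.25 in ClpP cKO did not pass (SE 0.13, adjusted p = 0.15). Cox6b2 made up 83.3 ± 3.90% of the pair in ClpX cKO, 85.7 ± 0.439% in ClpP cKO and 90.4 ± 0.954% in the control (SD, n = 3 each).

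Cox7b2 (ENSMUSG00000049387, chr5:71442824-71548205) was at 118, 113 and 103 FPKM in ClpX cKO, at 121, 135 and 117 FPKM in ClpP cKO and at 146, 164 and 161 FPKM in the control. Neither knockout overlapped the control. This testis form fell by 0.495 in ClpX cKO (SE 0.09, limma adjusted p = 0.0014) and by 0.34 in ClpP cKO (SE 0.09, adjusted p = 0.016), and the ClpP cKO call was lost without Control 2 or ClpP cKO 3, at -0.31 and -0.30, and under scaling by own totals, at -0.16.

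Cox7b (ENSMUSG00000031231, chrX:106015700-106022450), its somatic form on the X chromosome, was at 4.64, 4.66 and 7.87 FPKM in ClpX cKO, at 3.25, 4.02 and 3.67 FPKM in ClpP cKO and at 2.30, 3.02 and 2.78 FPKM in the control. The 3 groups did not overlap. ClpX cKO 3 was the highest library. Cox7b rose by 0.83 in ClpX cKO (SE 0.18, limma adjusted p = 0.0035), and the difference of 0.33 in ClpP cKO did not pass (SE 0.18, adjusted p = 0.15). Cox7b2 remained the larger part of the pair, at 95.1 ± 1.86% in ClpX cKO, 97.1 ± 0.228% in ClpP cKO and 98.3 ± 0.129% in the control (SD, n = 3 each).

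Cytochrome c differed from the complex IV pairs in that its testis form was not called. Cyct (ENSMUSG00000056436, chr2:76353942-76360450) was at 67.6, 72.4 and 62.1 FPKM in ClpX cKO, at 71.4, 81.1 and 78.1 FPKM in ClpP cKO and at 73.4, 70.7 and 67.9 FPKM in the control, so the groups overlapped. The limma differences from control were -0.07 in ClpX cKO (SE 0.08, adjusted p = 0.46) and 0.12 in ClpP cKO (SE 0.08, adjusted p = 0.24). Cycs (ENSMUSG00000063694, chr6:50562563-50566538), the somatic cytochrome c, was at 13.6, 16.3 and 20.1 FPKM in ClpX cKO, at 11.0, 13.1 and 12.8 FPKM in ClpP cKO and at 10.2, 8.79 and 10.1 FPKM in the control. Again the 3 groups did not overlap. Cycs rose by 0.71 in ClpX cKO (SE 0.13, limma adjusted p = 0.0021), and the difference of 0.31 in ClpP cKO did not pass (SE 0.13, adjusted p = 0.089). The Cyct share of the pair was 80.2 ± 4.05% in ClpX cKO, 86.2 ± 0.412% in ClpP cKO and 87.9 ± 0.970% in the control (SD, n = 3 each). The size of this share rests on the gene lengths used, 3404 bases for Cycs and 655 for Cyct. In reads per library Cycs had 780 to 1166 and Cyct 694 to 830 in ClpX cKO. In ClpP cKO these were 644 to 724 and 807 to 850, and in the control 457 to 499 and 606 to 707.

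**Figure D1:**
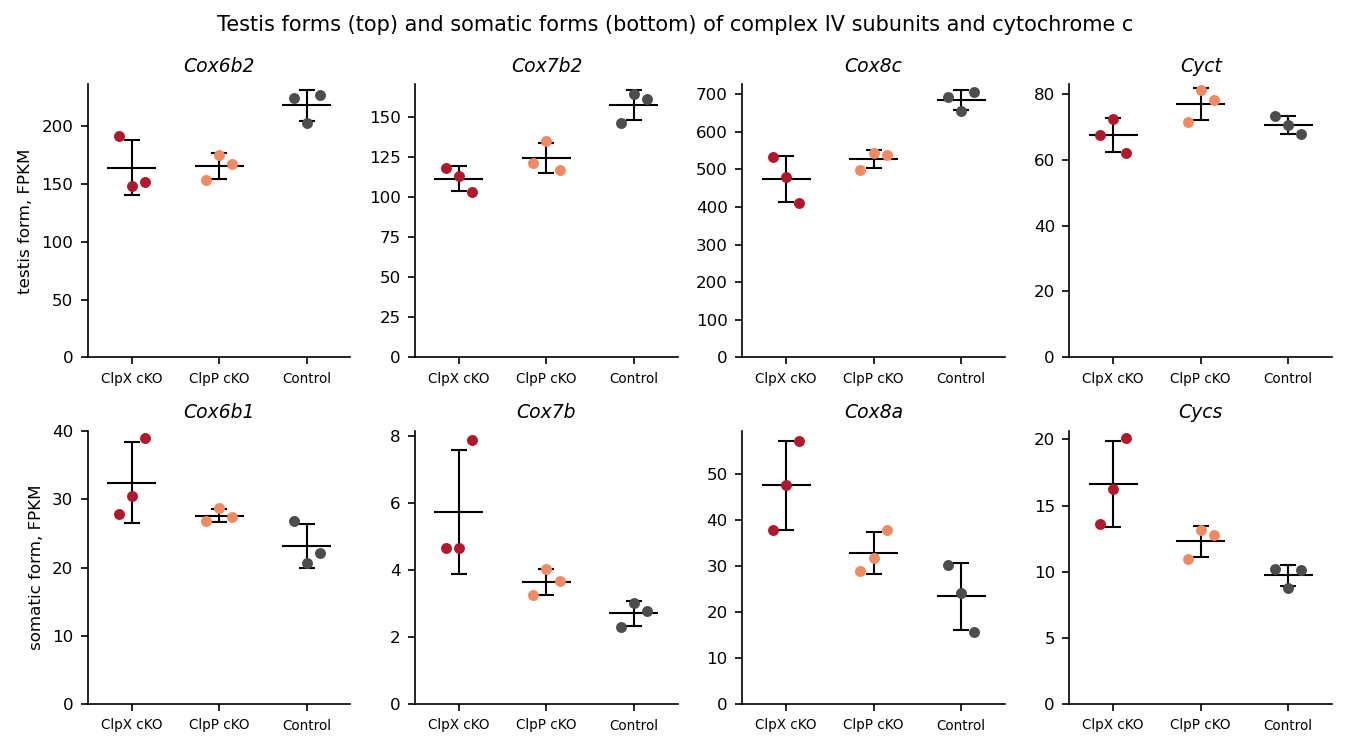
FPKM of the 4 testis forms (top row) and of their 4 somatic forms (bottom row) in each library of ClpX cKO, ClpP cKO and control, with a dot per library, the mean and SD as lines, and an axis of its own per panel from 0. Cox6b2, Cox7b2 and Cox8c lie lower in both knockouts than in the control, Cyct overlaps, and the 4 somatic forms are highest in ClpX cKO.

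The within-library ratio, log2 of testis form + 1 over somatic form + 1, put these pairs on a scale that no factor common to a library can move, apart from the added 1. Cox8c over Cox8a averaged 3.30 ± 0.48 in ClpX cKO, 3.97 ± 0.15 in ClpP cKO and 4.86 ± 0.48 in the control (SD, n = 3 each), a difference from control of -1.56 in ClpX cKO and -0.89 in ClpP cKO. Cox7b2 over Cox7b averaged 4.10 ± 0.47 in ClpX cKO, 4.75 ± 0.10 in ClpP cKO and 5.42 ± 0.06 in the control, with differences of -1.33 and -0.67. Cox6b2 over Cox6b1 averaged 2.31 ± 0.41, 2.54 ± 0.05 and 3.18 ± 0.15 in the same order, with differences of -0.88 and -0.65. Cyct over Cycs averaged 1.97 ± 0.34, 2.55 ± 0.04 and 2.74 ± 0.12, with differences of -0.78 and -0.19, the second of which was -0.13 without Control 2. Without Control 3 the differences of Cox8c over Cox8a were -1.29 in ClpX cKO and -0.62 in ClpP cKO, and without ClpX cKO 1 that of ClpX cKO was -1.80.

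No knockout library overlapped a control library in any of these 8 comparisons, and each gave p = 0.1 in the exact two-sided permutation test, the smallest that 3 libraries against 3 allow. Adjusted over the 21 tests of 7 pairs and 3 comparisons the value was 0.124, so the design could not pass the threshold. Between the knockouts the ratio was lower in ClpX cKO by 0.66 for Cox7b2 over Cox7b, by 0.67 for Cox8c over Cox8a and by 0.58 for Cyct over Cycs, without overlap in these libraries (exact p = 0.1 each, adjusted 0.124). For Cox6b2 over Cox6b1 the groups overlapped, with a difference of -0.23 (exact p = 0.4). These differences rested in part on ClpX cKO 3, without which they were -0.39 for Cox7b2 over Cox7b, -0.43 for Cox8c over Cox8a, -0.39 for Cyct over Cycs and -0.05 for Cox6b2 over Cox6b1. Without ClpX cKO 1 they were -0.81, -0.91, -0.72 and -0.45 in the same order of pairs.

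**Figure D2:**
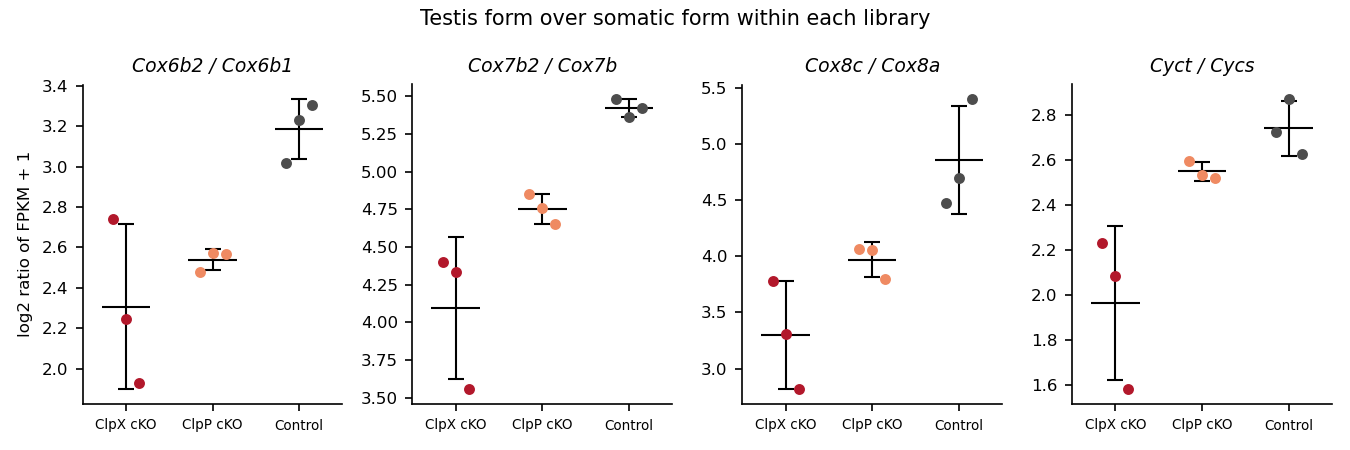
Log2 ratio of testis form to somatic form within each library, from FPKM + 1, with a dot per library, the mean and SD as lines, and axes that do not start at 0. Every knockout library lies below every control library, and ClpX cKO lies lowest except that it overlaps ClpP cKO for Cox6b2 over Cox6b1.

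In summed FPKM the 4 testis forms came to 817 ± 91.4 in ClpX cKO, 893 ± 45 in ClpP cKO and 1131 ± 34.9 in the control, and the 4 somatic forms to 102 ± 20.4, 76.4 ± 6.02 and 59.0 ± 9.64 in the same order (SD, n = 3 each). All of complex IV summed to 1414 ± 61.0 FPKM in ClpX cKO, 1424 ± 76.2 in ClpP cKO and 1721 ± 58.4 in the control. Without Cox8c, Cox6b2 and Cox7b2 it summed to 664 ± 40.1 FPKM in ClpX cKO, 608 ± 36.4 in ClpP cKO and 661 ± 50.1 in the control (SD, n = 3 each). The 3 testis forms themselves summed to 749 ± 88.9 FPKM in ClpX cKO, 817 ± 40.0 in ClpP cKO and 1060.0 ± 36.0 in the control. As net sums, the lower total at this scaling thus lay in the 3 testis forms in ClpX cKO and mostly in them in ClpP cKO, where the other genes of complex IV also had the lowest mean sum. The sum of these other genes holds opposite changes. Cox7a2 had a mean of 160 FPKM in the control, 105 in ClpX cKO and 119 in ClpP cKO. Cox8a had 23.4, 47.6 and 32.8 FPKM in the same order. Cox8c alone held 33.5 ± 3.23% of the complex IV total in ClpX cKO, 37.0 ± 0.480% in ClpP cKO and 39.8 ± 1.16% in the control.

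The sums of the other complexes lay closer together in absolute FPKM. In proportion, complex II differed between ClpX cKO and control about as much as complex IV, in the other direction. ClpX cKO lay above the control without overlap for complex II (153 to 171 against 132 to 139 FPKM) and narrowly for ATP synthase (593 to 661 against 557 to 592 FPKM). Complex II summed to 161 ± 9.26 FPKM in ClpX cKO, 148 ± 10.6 in ClpP cKO and 134 ± 3.55 in the control, and complex III to 449 ± 1.58, 445 ± 22.5 and 471 ± 27.2 in the same order (SD, n = 3 each). ATP synthase summed to 624 ± 34.2 FPKM in ClpX cKO, 584 ± 21.9 in ClpP cKO and 574 ± 17.2 in the control. Below Cox8c, the next level in the control was that of Cox6b2, apart from Cox7a2, Cox7b2 and Cox6a1, which overlapped in this order. In ClpX cKO Cox6a1 and Cox6b2 overlapped as the next levels, and in ClpP cKO Cox6b2, Cox6a1, Atp5a1, Atp5b, Cox7b2, Cox4i1 and Cox7a2 formed a run in which each overlapped its neighbour. Cox6a2 was the lowest of the 46 genes in every group. Named pseudogenes of the 46 genes had means of at most 0.508 FPKM, and how reads shared with other copies were assigned is not given in the sources used here.

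Cell type markers moved in the same libraries. Beside their counts stand the shares of all tested genes, 32.1% called higher and 33.5% lower in ClpX cKO. In ClpP cKO these shares were 20.7% and 24%, so a count near them is not particular to a cell type. All 10 of 10 Sertoli cell genes rose in both knockouts, and their summed level was 964 to 1334 FPKM in ClpX cKO, 741 to 831 in ClpP cKO and 525 to 547 in the control. All 10 elongating spermatid genes fell in both knockouts, to 1594 to 2455 FPKM in ClpX cKO and 4491 to 5377 in ClpP cKO, against 7800 in Control 3, 16320.5 in Control 2 and 17295 in Control 1. Of 10 round spermatid genes 10 fell in ClpX cKO and 9 in ClpP cKO (259 to 466 FPKM in ClpX cKO, 410.0 to 547 in ClpP cKO, 815 to 931 in the control). Of 10 pachytene and diplotene genes, which mark later spermatocytes, 8 fell in ClpX cKO and 7 in ClpP cKO (2640 to 3449 FPKM in ClpX cKO, 3567 to 3691 in ClpP cKO, 4606 to 4943 in the control). Among 10 spermatogonial genes ClpX cKO had 8 rises and 1 fall and ClpP cKO had 6 rises (111 to 142 FPKM in ClpX cKO, 93.5 to 108 in ClpP cKO, 71.2 to 80.2 in the control). Among 10 early prophase genes ClpX cKO had 6 rises and 1 fall and ClpP cKO had 6 rises (456 to 462 FPKM in ClpX cKO, 439 to 485 in ClpP cKO, 368 to 427 in the control). Somatic cells other than Sertoli cells were also represented. Of 7 tested immune cell genes 7 rose in ClpX cKO and 3 in ClpP cKO, with medians of 0.81 and 0.35 (74.6 to 89.4 FPKM in ClpX cKO, 48.5 to 71.9 in ClpP cKO, 38.0 to 44.5 in the control over all 8 listed). Of 8 tested peritubular and stromal genes 6 rose in ClpX cKO, the muscle genes Acta2, Myh11 and Des among them, and 2 in ClpP cKO, with medians of 0.70 and 0.32 (96.6 to 153 FPKM in ClpX cKO, 84.3 to 107 in ClpP cKO, 62.7 to 97.5 in the control over all 10 listed). Of 8 Leydig cell genes 2 rose in ClpX cKO and none was called in ClpP cKO (1 at an unadjusted p under 0.05 in limma), with medians of 0.67 and 0.55 (381 to 606 FPKM in ClpX cKO, 395 to 584 in ClpP cKO, 234 to 431 in the control). Of 2 tested endothelial genes 1 rose in ClpX cKO, and of 4 tested erythroid genes 1 fell, with no limma call of either kind in ClpP cKO (0 at an unadjusted p under 0.05). No gene of these lists was at 0 in any library, and the medians of the lists kept their sign under each scaling tried, except that the endothelial median in ClpP cKO (-0.05) turned to 0.06 under own totals. In bulk RNA, fewer cells of a type and less RNA per cell cannot be told apart, and the part of cell composition in the changes of the 46 genes was not tested.

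The other 3 complex IV pairs are named for forms known from lung (Cox4i2) and from heart and skeletal muscle (Cox6a2 and Cox7a1), and the tissue form was the minor one in each. Cox4i2 was at 2.03, 1.67 and 1.41 FPKM in ClpX cKO, at 2.35, 1.88 and 1.83 FPKM in ClpP cKO and at 3.28, 2.74 and 2.33 FPKM in the control, on 19 to 37 reads per library. ClpX cKO lay below the control, and ClpP cKO 1 reached into it. Cox4i2 fell by 0.48 in ClpX cKO (SE 0.13, limma adjusted p = 0.012), and the difference of -0.32 in ClpP cKO did not pass (SE 0.13, adjusted p = 0.078). Its common partner Cox4i1 was at 125, 130.1 and 137 FPKM in ClpX cKO, at 115, 129 and 124 FPKM in ClpP cKO and at 136, 129 and 131 FPKM in the control and was not called. The ratio Cox4i2 over Cox4i1 was lower by 0.47 in ClpX cKO without overlap (exact permutation p = 0.1) and by 0.21 in ClpP cKO with overlap (exact p = 0.3).

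Cox7a1, the muscle form, was at 4.88, 3.84 and 5.81 FPKM in ClpX cKO, at 3.79, 3.36 and 4.84 FPKM in ClpP cKO and at 2.87, 1.59 and 3.15 FPKM in the control, on 13 to 53 reads. Both knockouts lay above the control. It rose by 0.74 in ClpX cKO (SE 0.20, limma adjusted p = 0.012), and the difference of 0.52 in ClpP cKO did not pass (SE 0.20, adjusted p = 0.067). Cox7a2 (ENSMUSG00000032330, chr9:79755361-79759878), the common form, was at 112, 98.1 and 106 FPKM in ClpX cKO, at 118, 121 and 119 FPKM in ClpP cKO and at 172, 162 and 148 FPKM in the control. The 3 groups did not overlap. It fell by 0.60 in ClpX cKO (SE 0.08, limma adjusted p = 0.00051) and by 0.42 in ClpP cKO (SE 0.08, adjusted p = 0.009), calls kept without any 1 library and lost only under quantile normalization, where the changes were -0.00 and 0.03. Cox7a2 thus moved the other way from the common forms Cox8a, Cox6b1 and Cox7b, and Cox7a1 over Cox7a2 was higher by 1.34 in ClpX cKO and by 0.94 in ClpP cKO without overlap (exact permutation p = 0.1 each).

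Cox6a2 was at 0.349, 0.672 and 0.603 FPKM in ClpX cKO, at 0.256, 0.662 and 0.886 FPKM in ClpP cKO and at 1.44, 1.06 and 0.755 FPKM in the control, on 3 to 14 reads. Levels this low limit any reading, and Itgad, which overlaps it on the other strand, had a higher mean of 2.55 FPKM. Its partner Cox6a1, one of the most abundant of the 46 genes, was at 158, 162 and 177 FPKM in ClpX cKO, at 124, 154 and 143 FPKM in ClpP cKO and at 155, 137 and 129.6 FPKM in the control. It was not called, with a limma difference of 0.24 in ClpX cKO (SE 0.10, adjusted p = 0.073) and of -0.01 in ClpP cKO (SE 0.10, adjusted p = 0.97).

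Among the remaining complex IV genes Ndufa4 rose in both knockouts and Cox5a fell in both. Ndufa4 (ENSMUSG00000029632, chr6:11900292-11907497), first assigned to complex I and now counted as a subunit of complex IV, was at 14.4, 14.4 and 21.0 FPKM in ClpX cKO, at 12.0, 13.5 and 12.4 FPKM in ClpP cKO and at 8.80, 9.29 and 7.33 FPKM in the control. The 3 groups did not overlap. It rose by 0.88 in ClpX cKO (SE 0.15, limma adjusted p = 0.0011) and by 0.53 in ClpP cKO (SE 0.15, adjusted p = 0.021), and the ClpP cKO call was lost without Control 1, Control 3, ClpP cKO 2 or ClpP cKO 3, at 0.55, 0.44, 0.48 and 0.54, and with no filter on low values.

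Cox5a, a matrix-facing subunit, was at 37.3, 35.8 and 35.5 FPKM in ClpX cKO, at 35.3, 34.2 and 34.5 FPKM in ClpP cKO and at 40.3, 39.7 and 42.8 FPKM in the control. Neither knockout overlapped the control. It fell by 0.17 in ClpX cKO (SE 0.06, limma adjusted p = 0.025) and by 0.23 in ClpP cKO (SE 0.06, adjusted p = 0.015), with the sign turned under quantile normalization in both and, in ClpX cKO, under scaling by each library's own total. The ClpX cKO call was lost without Control 1, Control 3, ClpX cKO 2 or ClpX cKO 3, at -0.18, -0.14, -0.16 and -0.16, and the ClpP cKO call without ClpP cKO 2 or ClpP cKO 3, at -0.22 and -0.23 or under own totals at -0.05. The ClpX cKO call was also lost with limma voom on recovered reads (-0.16) and with the 6 libraries compared only (-0.17). Cox5b, Cox6c and Cox7c were called in neither knockout, with differences from -0.13 to -0.01 in ClpX cKO and from -0.24 to -0.08 in ClpP cKO.

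In complex III the haem protein gene Cyc1 rose and the iron-sulphur protein gene Uqcrfs1 fell in both knockouts. Their proteins act one after the other in the same electron path. Cyc1 (ENSMUSG00000022551, chr15:76343523-76346260), cytochrome c1, was at 33.9, 40.9 and 41.2 FPKM in ClpX cKO, at 32.4, 35.1 and 37.5 FPKM in ClpP cKO and at 23.6, 23.4 and 21.6 FPKM in the control. Every knockout library stood well above the controls. It rose by 0.73 in ClpX cKO (SE 0.09, limma adjusted p = 0.00047) and by 0.59 in ClpP cKO (SE 0.09, adjusted p = 0.0086), and both calls were kept under every alternative run.

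Uqcrfs1 (ENSMUSG00000038462, chr13:30540308-30545362), the Rieske protein, was at 70.8, 61.3 and 61.1 FPKM in ClpX cKO, at 65.9, 63.1 and 64.5 FPKM in ClpP cKO and at 79.3, 75.2 and 76.0 FPKM in the control. All knockout libraries lay below all controls. It fell by 0.25 in ClpX cKO (SE 0.07, limma adjusted p = 0.013) and by 0.25 in ClpP cKO (SE 0.07, adjusted p = 0.025) and turned to 0.21 and 0.09 under quantile normalization. The ClpP cKO call was lost without any 1 of Control 1, Control 2, Control 3, ClpP cKO 2 or ClpP cKO 3, at changes of -0.23 to -0.26, or with no filter on low values, and neither knockout's call was kept under own totals (-0.03 in ClpX cKO and -0.07 in ClpP cKO). The log2 ratio of Cyc1 to Uqcrfs1, a pair set side by side after their values were seen, averaged -0.72 ± 0.27 in ClpX cKO, -0.87 ± 0.12 in ClpP cKO and -1.71 ± 0.06 in the control (SD, n = 3 each), and is given as a description.

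Uqcrc1, a core protein of complex III, was at 57.9, 59.0 and 57.1 FPKM in ClpX cKO, at 60.7, 59.9 and 66.6 FPKM in ClpP cKO and at 68.9, 72.8 and 66.5 FPKM in the control. ClpX cKO lay below the control, and ClpP cKO 3 was level with Control 3. It fell by 0.25 in ClpX cKO (SE 0.07, limma adjusted p = 0.0088) and turned to 0.19 under quantile normalization, with the call also lost under own totals (-0.03), and the difference of -0.15 in ClpP cKO did not pass (SE 0.07, adjusted p = 0.089).

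Uqcrc2, the other core protein, was at 40.4, 46.2 and 41.3 FPKM in ClpX cKO, at 43.3, 46.4 and 42.5 FPKM in ClpP cKO and at 34.2, 39.1 and 39.0 FPKM in the control. Both knockouts lay above the control. It rose by 0.23 in ClpP cKO (SE 0.08, limma adjusted p = 0.044), and the difference of 0.18 in ClpX cKO did not pass (SE 0.08, adjusted p = 0.071). The ClpP cKO call was lost without any 1 of the 6 compared libraries or ClpX cKO 3, at changes of 0.17 to 0.26, and with no filter on low values. Uqcrc2 overlaps Pdzd9 on the other strand, whose mean of 41.2 FPKM was close to that of Uqcrc2 at 41.4, and whether counting used strand is not given in the sources used here, so the values of Uqcrc2 are uncertain. The small subunits Uqcrb, Uqcrq, Uqcrh, Uqcr10 and Uqcr11 were called in neither knockout, with differences from -0.32 to 0.37 in ClpX cKO and from -0.32 to 0.09 in ClpP cKO and SEs up to 0.19.

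The c subunit of ATP synthase is made from 3 genes with the same mature protein, and 2 of them, Atp5g2 and Atp5g3, rose in both knockouts. Atp5g2 (ENSMUSG00000062683, chr15:102662864-102672352) was at 23, 28.4 and 27.3 FPKM in ClpX cKO, at 20.3, 21.6 and 19.4 FPKM in ClpP cKO and at 12.4, 12.5 and 15.4 FPKM in the control. The 3 groups did not overlap. It rose by 0.92 in ClpX cKO (SE 0.11, limma adjusted p = 0.00045) and by 0.58 in ClpP cKO (SE 0.11, adjusted p = 0.0089), and both calls were kept under every alternative run. Atp5g3 (ENSMUSG00000018770, chr2:73908447-73911326) was at 36.4, 36.5 and 42.9 FPKM in ClpX cKO, at 34.8, 34.4 and 32.6 FPKM in ClpP cKO and at 28.3, 26.2 and 25.8 FPKM in the control. Again the groups did not overlap. It rose by 0.51 in ClpX cKO (SE 0.08, limma adjusted p = 0.00084) and by 0.33 in ClpP cKO (SE 0.08, adjusted p = 0.014), where the call was lost without ClpP cKO 2 at 0.32.

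Atp5g1 was at 6.95, 6.5 and 7.79 FPKM in ClpX cKO, at 5.31, 6.03 and 6.88 FPKM in ClpP cKO and at 8, 6.52 and 4.72 FPKM in the control. The groups overlapped, and neither limma difference passed (0.15 in ClpX cKO, SE 0.16, and -0.05 in ClpP cKO, SE 0.16). The gene length used for its FPKM was 4912 bases, against 1675 for Atp5g2 and 2181 for Atp5g3, and its 316 to 653 reads per library were not far below the 298 to 834 of Atp5g2. The 3 genes summed to 72.0 ± 5.85 FPKM in ClpX cKO, 60.4 ± 1.60 in ClpP cKO and 46.6 ± 1.87 in the control (SD, n = 3 each). Of this sum Atp5g2 held 36.5 ± 2.87% in ClpX cKO, 33.8 ± 0.973% in ClpP cKO and 28.9 ± 4.19% in the control.

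In the catalytic head of ATP synthase the alpha subunit gene was higher and the beta subunit gene was not called. Atp5a1 was at 128, 143 and 146 FPKM in ClpX cKO, at 121, 131 and 136 FPKM in ClpP cKO and at 112, 114 and 109 FPKM in the control. Both knockouts lay above the control. It rose by 0.32 in ClpX cKO (SE 0.08, limma adjusted p = 0.0059) and by 0.21 in ClpP cKO (SE 0.08, adjusted p = 0.047), and the ClpP cKO call was lost without any 1 of Control 1, Control 2, Control 3, ClpP cKO 2, ClpP cKO 3 or ClpX cKO 2, at 0.18 to 0.23, with no filter on low values, with a robust variance prior and under median-of-ratios scaling. Atp5b was at 128, 127 and 133 FPKM in ClpX cKO, at 123, 126 and 131 FPKM in ClpP cKO and at 137, 143 and 138 FPKM in the control. The knockout libraries lay below the controls, but the limma differences of -0.11 in ClpX cKO (SE 0.06, adjusted p = 0.15) and -0.14 in ClpP cKO (SE 0.06, adjusted p = 0.092) did not pass.

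Of the stalk and membrane subunits Atp5j, coupling factor 6, fell by 0.19 in ClpX cKO (SE 0.06, limma adjusted p = 0.02) and by 0.17 in ClpP cKO (SE 0.06, adjusted p = 0.048). It was at 23.5, 22.0 and 24.3 FPKM in ClpX cKO, at 23.3, 23.4 and 24.1 FPKM in ClpP cKO and at 26.6, 26 and 27.2 FPKM in the control. The knockouts overlapped each other and not the control. Its sign turned under scaling by own totals in both knockouts, at 0.03 and 0.01, and under quantile normalization in ClpX cKO, at 0.05, and the ClpP cKO call was lost without any 1 of the 6 compared libraries, at -0.15 to -0.18. The ClpX cKO call was lost without Control 1, Control 3 or ClpX cKO 2, at -0.19, -0.17 and -0.15. Further settings that lost an Atp5j call were the 6 compared libraries only in ClpX cKO, and no filter, quantile normalization, limma voom and the replicate block in ClpP cKO, and omission of Control 3 and ClpX cKO 1 together in both. Atp5j overlaps Gabpa on the other strand, which had a mean of 8.11 FPKM. Atp5pb, the b subunit of the peripheral stalk, was at 29.5, 29.6 and 31.9 FPKM in ClpX cKO, at 27.1, 29.5 and 28 FPKM in ClpP cKO and at 25.8, 25.5 and 27.8 FPKM in the control. It rose by 0.19 in ClpX cKO (SE 0.07, limma adjusted p = 0.028), lost without Control 1, Control 2 or ClpX cKO 3 at 0.18, 0.17 and 0.16 and with the 6 compared libraries only, and was not called in ClpP cKO. Atp5c1, Atp5d, Atp5h, Atp5j2, Atp5k, Atp5l and Atp5o were called in neither knockout, with differences from -0.10 to 0.14 in ClpX cKO and from -0.20 to 0.07 in ClpP cKO. The antisense gene Gm30934 overlaps Atp5l and had a mean of 8.11 FPKM, against 4.68 for Atp5l, whose values are therefore uncertain.

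**Figure D3:**
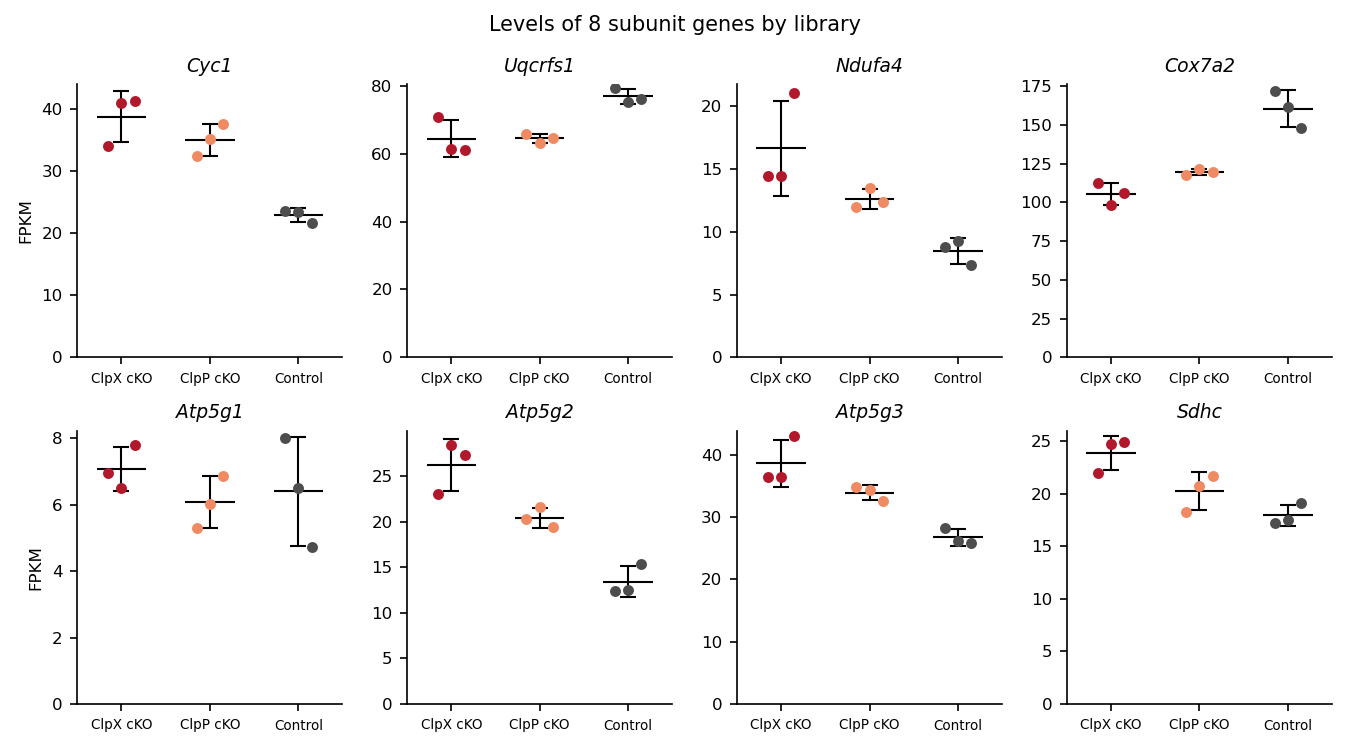
FPKM of Cyc1, Uqcrfs1, Ndufa4, Cox7a2, the 3 c subunit genes and Sdhc in each library of ClpX cKO, ClpP cKO and control, with a dot per library, the mean and SD as lines, and an axis of its own per panel from 0. Cyc1, Ndufa4, Atp5g2 and Atp5g3 lie higher in both knockouts than in the control, Cox7a2 and Uqcrfs1 lie lower, and Atp5g1 overlaps.

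Complex II, whose 4 subunits are all nuclear, had calls in ClpX cKO only in the upward direction and none in ClpP cKO. Sdhc (ENSMUSG00000058076, chr1:171127165-171150603), a membrane anchor, was at 22.0, 24.7 and 25.0 FPKM in ClpX cKO, at 18.3, 20.8 and 21.7 FPKM in ClpP cKO and at 17.2, 17.5 and 19.1 FPKM in the control. ClpX cKO lay above both other groups, which overlapped each other. Sdhc rose by 0.39 in ClpX cKO (SE 0.09, limma adjusted p = 0.0038), and the difference of 0.16 in ClpP cKO did not pass (SE 0.09, adjusted p = 0.14).

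The second anchor gene Sdhd rose by 0.35 (SE 0.11, limma adjusted p = 0.018) and Sdha, the flavoprotein that binds succinate, by 0.22 (SE 0.07, adjusted p = 0.028) in ClpX cKO. Sdhd was at 47.6, 52.2 and 60.7 FPKM in ClpX cKO, at 42.0, 50.3 and 50.5 FPKM in ClpP cKO and at 41.2, 43.8 and 40.0 FPKM in the control. Sdha was at 47.8, 47.4 and 46.6 FPKM in ClpX cKO, at 41.8, 48.2 and 48.9 FPKM in ClpP cKO and at 41.1, 41.9 and 38.7 FPKM in the control. ClpX cKO lay above the control for both, and ClpP cKO 1 was within the control range for both. The Sdhd call was lost without Control 1, Control 3 or ClpX cKO 3, at 0.34, 0.32 and 0.25, and the Sdha call without Control 1, Control 3, ClpX cKO 2 or ClpX cKO 3, at 0.22, 0.18, 0.21 and 0.23, or without Control 3 and ClpX cKO 1 together, at 0.17. Sdhb, the iron-sulphur subunit, was not called (0.09 in ClpX cKO, SE 0.07, and -0.03 in ClpP cKO, SE 0.07, limma adjusted p = 0.33 and 0.77).

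By complex, 3 of 4 genes rose in ClpX cKO in complex II. Complex III had 1 rise and 2 falls among 9 genes, complex IV 5 and 6 among 16, and ATP synthase 4 and 1 among 14, and 1 of the 2 cytochrome c genes rose. The shares called were 75% in complex II, 33.3% in complex III, 68.8% in complex IV, 50% in cytochrome c and 35.7% in ATP synthase. Of all tested genes 65.6% were called in ClpX cKO. In ClpP cKO none of 4 was called in complex II (1 had an unadjusted p under 0.05 in limma), 2 rose and 1 fell in complex III, 1 rose and 5 fell in complex IV, none of 2 was called in cytochrome c (1 at an unadjusted p under 0.05), and 3 rose and 1 fell in ATP synthase. The shares called were 33.3% in complex III, 37.5% in complex IV and 28.6% in ATP synthase, beside 44.7% of all tested genes. The knockouts share their controls, so their calls are given only side by side: Cyc1, Atp5g2, Atp5g3, Ndufa4 and Atp5a1 were called higher in both, and Cox7a2, Cox8c, Cox6b2, Cox7b2, Uqcrfs1, Cox5a and Atp5j lower in both.

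**Figure D4:**
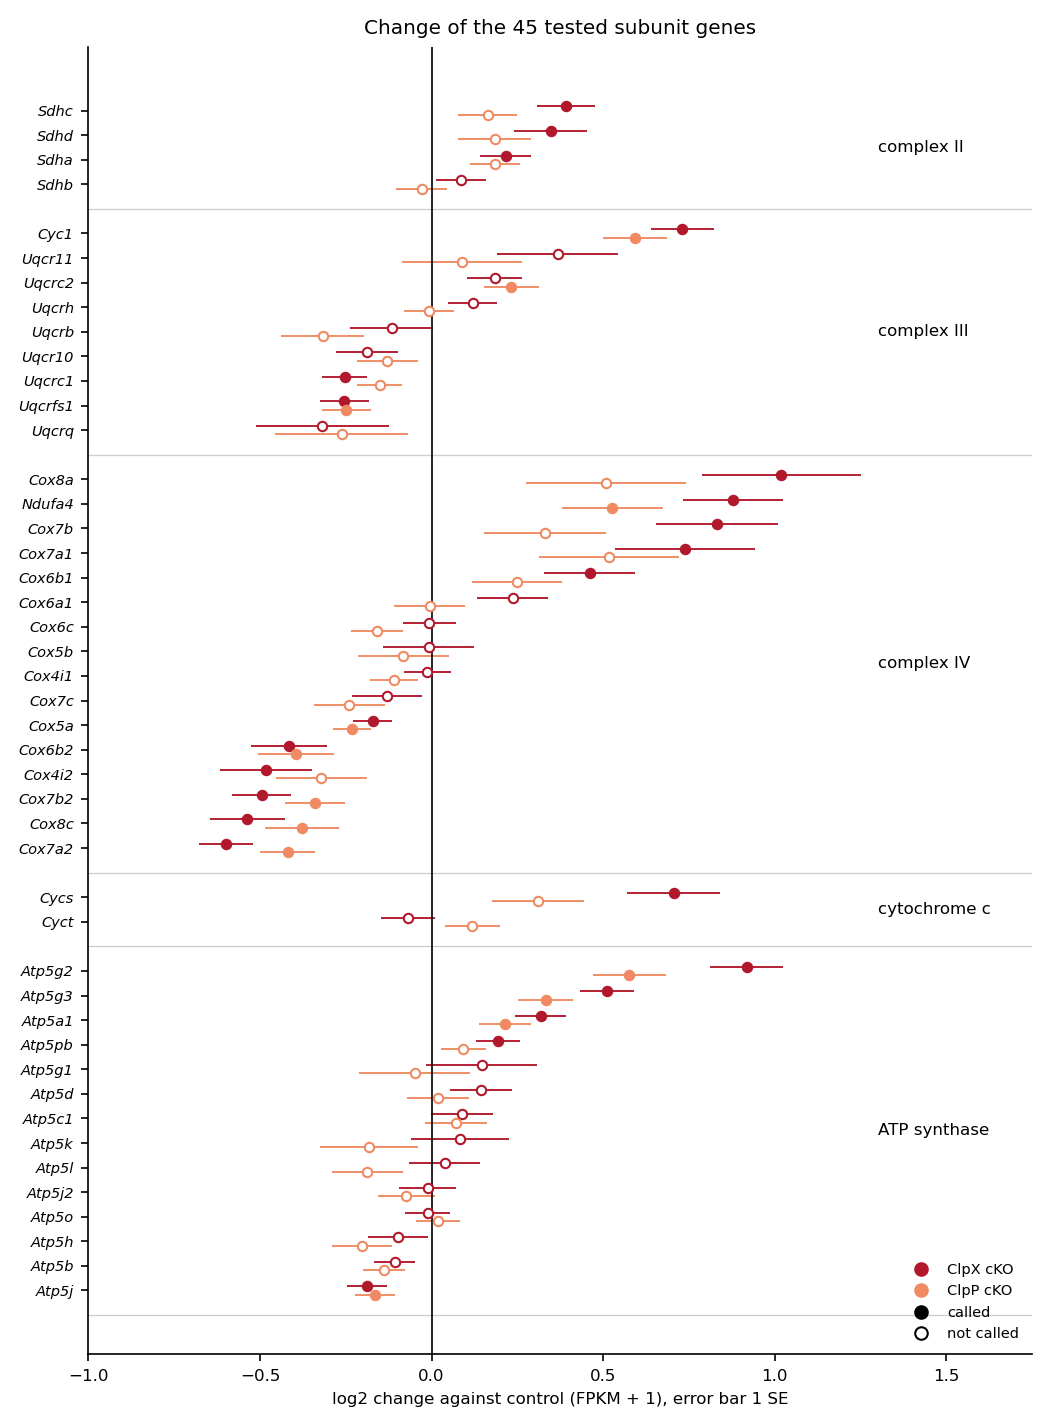
Log2 change of FPKM + 1 against control for the 45 tested genes, grouped by complex, with ClpX cKO above ClpP cKO for each gene, filled dots for called genes and bars of 1 SE. Of the 45 genes 14 lie higher and 9 lower as called in ClpX cKO, and 6 and 7 in ClpP cKO, with rises and falls inside complexes III, IV and ATP synthase.

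Between ClpX cKO and ClpP cKO none of the 45 genes was called by limma, where 0.104% of all tested genes were, and the libraries did not overlap for 11 of the 45, beside 29.9% of all tested genes. At an unadjusted p under 0.05 there were 7 of the 45 and 4801 of the 17266. The largest limma differences were those of Cox8a at 0.51 (SE 0.23, adjusted p = 0.19), Cox7b at 0.50 (SE 0.18, adjusted p = 0.12), Cycs at 0.40 (SE 0.13, adjusted p = 0.12), Ndufa4 at 0.35 (SE 0.15, adjusted p = 0.16) and Atp5g2 at 0.34 (SE 0.11, adjusted p = 0.1), all higher in ClpX cKO. A p that misses the threshold does not show that the knockouts were alike. ClpX cKO 1 was the library of its group nearest to ClpP cKO for Cox8a, Cycs, Atp5g2 and Sdhc, and without it 4 genes were called, all higher in ClpX cKO: Atp5g2 (0.43, SE 0.10, limma adjusted p = 0.021), Cox7b (0.61, SE 0.19, adjusted p = 0.049), Cycs (0.52, SE 0.12, adjusted p = 0.019) and Sdhc (0.28, SE 0.08, adjusted p = 0.041). In that fit 27.6% of all tested genes were called. Without both Control 3 and ClpX cKO 1, a setting chosen after seeing the data, 5 genes were called beside 29.8% of all: Atp5g2 (0.43), Cox8a (0.66), Cycs (0.52) and Sdhc (0.28) higher and Cox7a2 (-0.23) lower in ClpX cKO.

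The rises kept their direction under each scaling tried, while the falls kept it only under some. These scalings could hardly turn a rise. Own totals and quantile normalization moved the median of all genes up, and median-of-ratios scaling and limma voom left it near 0. Relative to that median the 14 rises of ClpX cKO lay at 0.23 to 1.06 under own totals and at 0.39 to 1.23 under quantile normalization. The 6 of ClpP cKO lay at 0.24 to 0.61 and at 0.41 to 0.70. All 9 falls of ClpX cKO and all 7 of ClpP cKO stayed below 0 under median-of-ratios scaling and limma voom on recovered reads. Under own totals 7 of the 9 and 6 of the 7 stayed below 0. The 14 rising genes of ClpX cKO and the 6 of ClpP cKO all stayed above 0 under median-of-ratios scaling, quantile normalization, limma voom on recovered reads, and scaling to the total of each library. Scaling by own totals moved the median of all genes to 0.18 in ClpX cKO and to 0.16 in ClpP cKO, and relative to that median the 9 falling genes of ClpX cKO (-0.56 to -0.13) and the 7 of ClpP cKO (-0.40 to -0.15) all stayed below it. Under quantile normalization the median of all genes was at 0.09 and 0.07, and 5 of the 9 and 5 of the 7 stayed below it, while 2 of the 9 and 1 of the 7 stayed below 0. The split of calls moved with it: in ClpX cKO 33 genes were higher and 1 lower under quantile normalization and 24 and 4 under own totals, against 14 and 9 as deposited. In ClpP cKO the split was 17 and 0 under quantile normalization and 17 and 1 under own totals, against 6 and 7 as deposited. Of all tested genes 63.6% in ClpX cKO and 38.7% in ClpP cKO were called under quantile normalization, and 67.4% and 48.6% under own totals. As deposited these shares were 65.6% and 44.7%.

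**Figure D5:**
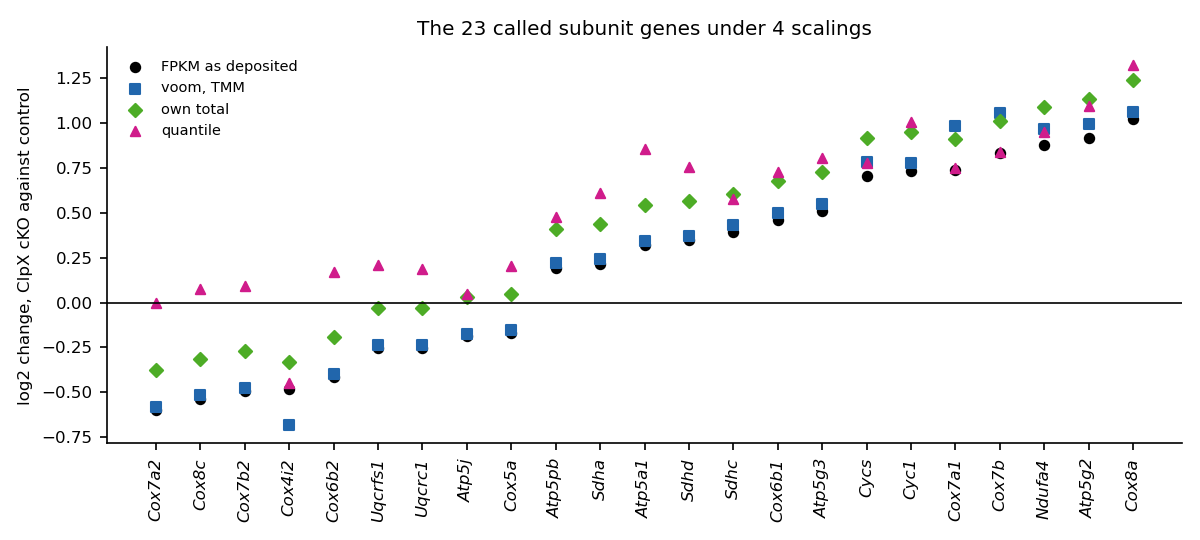
Log2 change in ClpX cKO against control for the 23 called genes under 4 scalings, with a symbol per scaling and the genes ordered by their change at the deposited FPKM. The 14 rises stay above 0 under each, while 7 of the 9 falls lie above 0 under quantile normalization and 2 of the 9 under scaling by own totals.

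Other genes of the same complexes came from lists that hold the remaining subunits, assembly factors and mitochondrially encoded subunits. Their counts are to be read beside the 65.6% of all genes called in ClpX cKO and the 44.7% in ClpP cKO. Of 7 tested further nuclear subunits and paralogs none rose in either knockout, 5 fell in ClpX cKO and 3 in ClpP cKO, with medians of -0.42 and -0.26. Atp5e, the epsilon subunit of ATP synthase, was at 7.27, 6.38 and 8.08 FPKM in ClpX cKO, at 36.4, 38.9 and 41.2 FPKM in ClpP cKO and at 49.4, 39.6 and 24.5 FPKM in the control. It was the 1 gene of these lists with a call between the knockouts, with a log2 difference of -2.28 for ClpX cKO over ClpP cKO (SE 0.21, limma adjusted p = 0.015). Atp5mpl, a small membrane subunit, fell by 0.73 in ClpX cKO (SE 0.14, limma adjusted p = 0.0022) and by 0.62 in ClpP cKO (SE 0.14, adjusted p = 0.013).

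Genes listed broadly as assembly factors of complex IV rose in 10 of 22 cases and fell in 1 in ClpX cKO, and rose in 8 and fell in none in ClpP cKO, with medians of 0.24 and 0.21 that stayed above 0 under each scaling tried. The shares called, 50% and 36.4%, were below those of all genes. Cox17, which is counted among the 10, passed the minimum only through the knockouts, with means of 1.18 FPKM in ClpX cKO, 1.07 in ClpP cKO and 0.775 in the control. Also among the 10 were the copper chaperone Sco1 (0.62 in ClpX cKO and 0.40 in ClpP cKO, SE 0.09 each), Lrpprc (0.46 and 0.33, SE 0.07 each) and Fastkd1 (0.40 and 0.44, SE 0.07 each). Lrpprc stabilises mitochondrial messengers, and neither it nor Fastkd1 is an assembly factor in the narrow sense. Hccs, which attaches haem to cytochrome c, was at 3.40, 3.62 and 3.61 FPKM in ClpX cKO, at 2.94, 2.58 and 2.55 FPKM in ClpP cKO and at 1.79, 1.39 and 2.08 FPKM in the control. It rose by 0.73 in ClpX cKO (SE 0.11, limma adjusted p = 0.0007) and by 0.43 in ClpP cKO (SE 0.11, adjusted p = 0.016). Assembly factors of complex III went both ways, with 2 higher and 3 lower of 6 in ClpX cKO and 2 and 2 in ClpP cKO.

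Lyrm7, which guides the Rieske protein into complex III, was at 4.65, 3.05 and 3.14 FPKM in ClpX cKO, at 5.24, 5.11 and 5.79 FPKM in ClpP cKO and at 9.63, 8.99 and 8.16 FPKM in the control. It fell by 1.12 in ClpX cKO (SE 0.13, limma adjusted p = 0.00045) and by 0.64 in ClpP cKO (SE 0.13, adjusted p = 0.01). Bcs1l, the translocase for the same protein, rose by 0.47 (SE 0.10) and 0.31 (SE 0.10). Smaller adjusted p-values than those of Bcs1l were found for Uqcc2 and Ttc19. Uqcc2, the most abundant of the complex III factors, fell by 0.55 and 0.48 (SE 0.07 each), and Ttc19 rose by 0.45 and 0.33 (SE 0.08 each). Of 5 ATP synthase assembly factors Tmem70 rose in both knockouts (0.36 and 0.26, SE 0.08 each), and Atpaf2 and Tmem242 fell in ClpX cKO. Of 4 complex II assembly factors Sdhaf3 rose in ClpX cKO (0.27, SE 0.10), and none was called in ClpP cKO (1 at an unadjusted p under 0.05 in limma). Of the mitochondrially encoded subunits of complexes III to V, mt-Atp6, mt-Cytb, mt-Co1, mt-Co2 and mt-Co3 rose in ClpX cKO, by 0.82 (mt-Co3) to 1.85 (mt-Atp6), and mt-Atp6 (1.02) and mt-Cytb (0.70) in ClpP cKO. The remaining one, mt-Atp8, passed the minimum only through ClpX cKO and rested on 6 to 8 reads per library in ClpX cKO, 2 to 3 in ClpP cKO and 2 to 3 in the control, so its call is not counted here.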

How the data were processed

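RNA from 9 libraries was sequenced, 1.3 ug of total RNA each going into a SMARTER mRNA-Seq library, per the labels' protocols. The authors deposited a table of FPKM per gene on GRCm38 (mm10), per the submitters' processing notes, with a gene length in bases (a column of another unit) per the file headers. The aligner, the counter and the use of strand are not given in the sources used here. Multiplied by gene length, 100% of the FPKM values lay on an even grid in each library (tolerance 0.01 of a grid unit), from which gene reads were recovered. The implied denominator was 1.05 to 1.09 times the own total of gene reads in ClpX cKO, 1.04 to 1.05 in ClpP cKO and 0.897 to 0.951 in the control, and its origin is not stated. Depth counts reads without molecular identifiers, so reads are not independent molecules.

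Of the 46 names 45 matched the table and Atp5pb was found through a RefSeq synonym. A second Atp5o identifier was at 0 in all libraries and was not used. The values log2(FPKM + 1) of the 17266 genes averaging at least 1 FPKM over the 9 libraries were fitted with limma 3.58.1 (R 4.3.3), 9 libraries in 1 model, 6 residual degrees of freedom and a trended prior, two-sided, with Benjamini-Hochberg adjustment over all genes. The fit was also run on simulated data, in which few genes changed, only in ClpP cKO, and levels were scaled by true library totals. That run cannot speak for changes as widespread as those here or for a denominator that differs between groups. Ratios of paired forms were compared by an exact permutation test. Values per library are given for the 7 pairs of tissue and common forms, for up to 8 called members each way per knockout whose libraries did not overlap the control, and for up to 3 called genes of each further list by smallest adjusted p. Other genes with such values were chosen after their values were seen. Members, lists and tests were chosen with earlier results of these data known. Alternatives were another pseudocount, filter, scaling, sample set, variance prior or replicate block, limma voom on recovered reads, and each library left out. Omission of Control 3 and ClpX cKO 1 together was chosen after seeing the data.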

Additional observations from a re-analysis of the deposited data

How the results depend on the processing

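Quantile normalization turned the sign of Cox8c (0.0756), Cox6b2 (0.17), Cox7b2 (0.0895), Uqcrfs1 (0.21), Uqcrc1 (0.19), Cox5a (0.20) and Atp5j (0.0486) in ClpX cKO, and of Cox8c (0.0241), Cox6b2 (0.057), Cox7b2 (0.0882), Cox7a2 (0.0271), Uqcrfs1 (0.0919) and Cox5a (0.0305) in ClpP cKO. Scaling to own totals turned Cox5a (0.0474) and Atp5j (0.0286) in ClpX cKO and Atp5j (0.0126) in ClpP cKO. Under quantile normalization the ratio differences moved to -0.75 for Cox7b2 over Cox7b and -0.38 for Cyct over Cycs in ClpX cKO, and to -0.35 for Cox6b2 over Cox6b1, -0.23 for Cox7b2 over Cox7b and 0.12 for Cyct over Cycs in ClpP cKO; the cause was not tested. The count of called members in ClpP cKO was 6 with no filter on low values, where more genes were tested and 13.3% of all of them were called. With 1 library left out the count ranged from 4 to 16 in ClpP cKO, from 19 to 24 in ClpX cKO and from 0 to 4 between the knockouts. The share of all tested genes called ranged with it, from 20.9% to 50.6%, from 56.9% to 68.2% and from 0% to 27.6% in the same order. Leaving out Control 1 gave 6 calls in ClpP cKO, Control 2 gave 8, Control 3 gave 6, ClpP cKO 2 gave 5 and ClpP cKO 3 gave 4. Of all tested genes 24.3%, 28.3%, 35.7%, 20.9% and 23.4% were called in these runs, against 44.7% with all libraries, so the loss of calls was not particular to the members. The count of 4 between the knockouts came without ClpX cKO 1, and it was 5 without Control 3 and ClpX cKO 1, beside 27.6% and 29.8% of all tested genes. Called in every alternative run that tested them were 2 of 13 members in ClpP cKO (Cyc1 and Atp5g2) and 11 of 23 in ClpX cKO. Of these 11, Cox7b, Cox7a1 and Cox4i2 were not tested in the run with a minimum mean of 5 FPKM, which their low levels did not reach.

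Correlations of deviations ran from -0.0702 to 0.234 between same-numbered libraries and from -0.237 to 0.113 between differently numbered ones. The highest values were those of same-numbered libraries, so an effect shared by a replicate number cannot be set aside. The labels do not say what the numbers mark. With the replicate block 24 members were called in ClpX cKO, 15 in ClpP cKO and 0 between the knockouts, beside 65.4%, 45.4% and 0.00579% of all tested genes. Low reads limit mt-Atp8 (2 to 8), Cox6a2 (3 to 14), Cox7a1 (13 to 53) and Cox4i2 (19 to 37).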
